A study of Mus musculus with 6 samples.

Results

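Genes of 8 heart ion channel subunits are described here across the 6 arrays of a mouse heart study. They are Cacna1c, Cacnb2 and Cacna2d1 of the L-type calcium channel, Cacna1g and Cacna1h of the T-type calcium channels, Hcn2 and Hcn4 of the pacemaker channels, and Scn4b of the sodium channels. They were chosen by name as members of these channel families, and all 8 were among the 22180 genes tested. These genes, and the gene lists set beside them below, were chosen with earlier results of these data known. The shares called in them are therefore descriptions. Where a gene had several probes, the probe with the highest mean over the 6 arrays stood for it.

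The arrays held total RNA from 6 heart samples, and the strain was given as mixed C57BL/6 x 129S6. In 3 samples, here called transgenic hearts, the genotype was Nkx2.5-Cre; R26R-miR302-367, in which Cre switched on the miR-302-367 microRNA cluster from the Rosa26 locus. The other 3 samples, here called control hearts, had the genotype Nkx2.5-Cre, so both groups carried the Cre allele. Nkx2.5-Cre is active in cardiac progenitors and the cells that descend from them, so not every cell of a heart carries the active transgene. The labels conflict on age: the harvest protocol and source name give postnatal day 14, while the age field gives E14. Separate animals are not stated, so the p-values cover only the spread among these 6 samples, part of which may be technical. Array medians lay between 5.45 and 5.54 on the log2 scale, and same-group arrays correlated at 0.982 to 0.989 across probes. Precision is limited by having 6 arrays. The transgene check held for Mir302a, Mir302b, Mir302c, Mir302d and Mir367, whose lowest transgenic value lay above the highest control value, by 2.37 to 6.37 on the log2 scale. The group means differed by 2.99 to 6.61 (largest limma adjusted p = 0.000271), with dim control values of 2.49 to 4.04. The 9 general cardiomyocyte markers, such as Myh6 and Tnnt2, had a mean level of 12.58 to 12.61 in transgenic hearts and 12.60 to 12.68 in control hearts, and 0 of them passed the test. Their log2 fold changes were negative for 7 of the 9. For 5 of the 9 every transgenic value lay below every control value, as for 16.7% of all genes.

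Voltage-gated channels turn changes of membrane potential into ion currents. In the working heart muscle cell the L-type calcium channel carries the calcium that triggers contraction; Cacna1c encodes its pore, and Cacnb2 and Cacna2d1 encode auxiliary subunits that bring the pore to the membrane and tune its gating. T-type channels open at more negative potentials, are found in the fetal ventricle and in the conduction system, and become rarer in the working ventricle after birth. The HCN channels open on hyperpolarisation and carry the pacemaker current, with HCN4 the main form of the sinoatrial node, and Scn4b encodes a beta subunit that modifies sodium channel gating.

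The microRNAs that the transgene carries are shown because they define the tested genotype. RefSeq (GRCm38.p6) mature sequences were found for 4 of the 5 guide strands, with no entry used for miR-302a-3p. They are printed 5′ to 3′, with capitals marking the seed (bases 2 to 8), and all lie on the plus strand of chromosome 3.
mmu-miR-302b-3p (chr3:127545275-127545297): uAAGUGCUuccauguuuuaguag
mmu-miR-302c-3p (chr3:127545406-127545427): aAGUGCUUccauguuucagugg
mmu-miR-302d-3p (chr3:127545665-127545687): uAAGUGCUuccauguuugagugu
mmu-miR-367-3p (chr3:127545779-127545800): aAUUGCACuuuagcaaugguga
The seeds of miR-302b-3p and miR-302d-3p are identical as annotated. That of miR-302c-3p is offset from them by a base, and that of miR-367-3p is a different sequence. Target sites in the channel transcripts were not analysed here.

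The comparison asked which of the channel genes differed between transgenic and control hearts. One of the 8 rose, the T-type pore gene Cacna1g, and 2 fell, the L-type auxiliary subunit gene Cacna2d1 and the pacemaker channel gene Hcn2. These differences lay between 1.54-fold and 1.61-fold. The other 5 genes did not pass the test. The test was limma across all 22180 genes with Benjamini-Hochberg adjustment and a threshold of 0.05, and 11.1% of all genes passed it, 5.35% higher and 5.76% lower in transgenic hearts. In all 1187 genes were called higher and 1278 lower, a split of 48.2% higher that shifted to 36.4% with renewed quantile normalization and 38.1% with arrays centred on their medians. The median log2 fold change was 0.12 over the 8 channel genes and -0.03 over all genes. For 3 of the 8 channel genes every transgenic value lay above every control value, and for 2 every transgenic value lay below, against 14.2% and 16.7% of all genes, or 30.9% in either direction. Since the arrays measured whole-heart RNA, fewer cells of a type and less RNA per cell cannot be told apart.

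**Figure D1:**
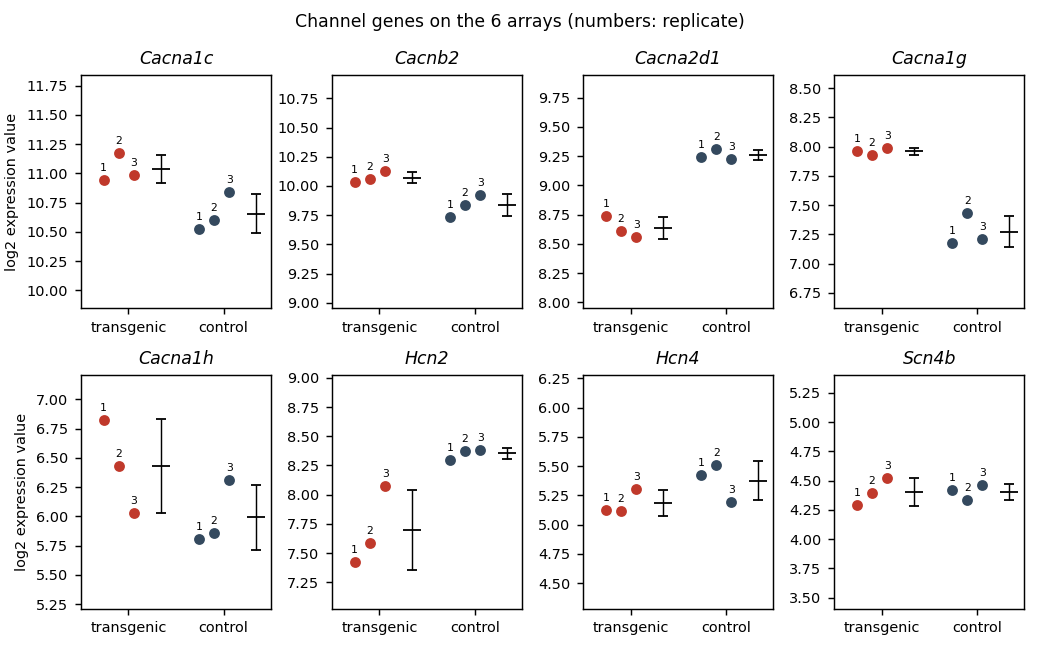
Log2 expression values of the 8 channel genes on each array, with 3 transgenic hearts on the left and 3 control hearts on the right of each panel; numbers are replicate numbers, and bars give the mean and SD. Every panel spans the same height on the log2 scale. Cacna1g lies higher and Cacna2d1 and Hcn2 lower in all transgenic hearts, while the groups overlap for Cacna1h, Hcn4 and Scn4b.

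Of the 3 L-type subunit genes, Cacna2d1 alone passed the test. Cacna1c, the pore, had log2 values of 10.95, 11.17 and 10.99 in transgenic hearts 1, 2 and 3, against 10.52, 10.60 and 10.84 in control hearts 1, 2 and 3. All transgenic values lay above all control values, and control 3 came closest, 0.10 below the lowest transgenic heart. The log2 fold change was 0.38 (SE 0.11, 95% interval 0.13 to 0.63), and the limma adjusted p of 0.0633 missed the threshold. It fell below the threshold without control 3 (adjusted p = 0.0263), with the dimmest genes left out (a share of 0.333, adjusted p = 0.0411), with an intensity trend and robust variance (0.0153) and with array weights (0.021). Left-out arrays otherwise gave values up to 0.203, without transgenic 2.

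Cacnb2, the beta subunit, had log2 values of 10.03, 10.06 and 10.12 in transgenic hearts, against 9.74, 9.84 and 9.92 in control hearts. The groups were separate, with a gap of 0.11 between them. The difference was small, 0.24 on the log2 scale (SE 0.088, 95% interval 0.04 to 0.44) with a limma adjusted p = 0.126. It passed the threshold with an intensity trend and robust variance alone (adjusted p = 0.0391). A second, dimmer Cacnb2 probe averaged 5.17 ± 0.18 in transgenic and 5.10 ± 0.23 in control hearts (SD, n = 3 each), which is 0.07 on the log2 scale (limma adjusted p = 0.799 over all probes). Cacnb2 was the only one of the 8 genes with more than 1 probe of its own.

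Cacna2d1 encodes the extracellular alpha2-delta subunit, the site at which gabapentin drugs bind. Its log2 values were 8.74, 8.61 and 8.56 in transgenic hearts, against 9.25, 9.31 and 9.23 in control hearts. The lowest control heart stood 0.49 above the highest transgenic heart, while the SDs were 0.096 in transgenic and 0.041 in control hearts (n = 3 each). Cacna2d1 fell by 0.63 on the log2 scale (SE 0.088), a 1.54-fold difference with a limma adjusted p = 0.0032. It stayed past the threshold in all 6 fits that left out an array (adjusted p 0.00693 to 0.0187) and in all 8 that changed the processing (0.000295 to 0.0105).

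The within-array difference between the pore and its alpha2-delta subunit shows how far these 2 genes parted. The Cacna1c value exceeded the Cacna2d1 value by 2.20, 2.56 and 2.43 on the log2 scale in transgenic hearts, against 1.27, 1.29 and 1.61 in control hearts. The probes differ in brightness, so only the change has meaning, and it was 1.01. For Cacna1c minus Cacnb2 the change was 0.14, with differences of 0.91, 1.11 and 0.86 in transgenic hearts against 0.79, 0.76 and 0.92 in control hearts, which overlap. Exact two-sided permutation tests gave p = 0.1 for the first pair and 0.3 for the second, or 0.2 and 0.4 after adjustment over the 4 pairs compared. With 3 arrays against 3, 0.1 is the smallest p the test allows.

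Both T-type pore genes had higher means in transgenic hearts, and 1 of them was called. Cacna1g had log2 values of 7.96, 7.93 and 7.99 in transgenic hearts, against 7.18, 7.43 and 7.21 in control hearts. Transgenic values were nearly the same on all 3 arrays (SD 0.029), and the nearest control heart, control 2, lay 0.50 below them. Cacna1g rose by 0.68 on the log2 scale (SE 0.095, 95% interval 0.47 to 0.90), a 1.61-fold difference with a limma adjusted p = 0.00309. The call held in all 6 fits without 1 array (adjusted p 0.00378 to 0.0171) and in all 8 with other processing (0.000636 to 0.00976).

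Cacna1h had log2 values of 6.83, 6.43 and 6.03 in transgenic hearts, against 5.81, 5.86 and 6.31 in control hearts. Its groups overlapped: transgenic 3 lay below control 3. The SDs were 0.40 in transgenic and 0.27 in control hearts (n = 3 each). The log2 fold change was 0.44 (95% interval -0.03 to 0.90, limma adjusted p = 0.223), close to the transgenic SD. The interval includes both no change and the size seen for Cacna1g. The within-array difference of Cacna1g minus Cacna1h was 1.13, 1.49 and 1.96 in transgenic hearts and 1.37, 1.57 and 0.91 in control hearts. Its change of 0.25 was within the spread of the arrays (exact permutation p = 0.5, adjusted 0.5).

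Of the pacemaker channels, Hcn2, the form that working myocardium also makes, fell in transgenic hearts. Its log2 values were 7.42, 7.59 and 8.08 in transgenic hearts, against 8.30, 8.38 and 8.39 in control hearts. The control hearts agreed closely (SD 0.049) while the transgenic hearts were spread (SD 0.34), and transgenic 3 came within 0.22 of the lowest control heart. Hcn2 fell by 0.66 on the log2 scale (SE 0.15, 95% interval -1.01 to -0.31), a 1.58-fold difference with a limma adjusted p = 0.0288. The call was kept with all 8 other ways of processing (adjusted p 0.0102 to 0.0304). It was lost without transgenic 1 (0.0932), transgenic 2 (0.106), control 1 (0.0702), control 2 (0.0678) or control 3 (0.0629), and without transgenic 3 it stood at 0.00502 with a fall of 0.85.

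Hcn4, the node's main form, had log2 values of 5.13, 5.12 and 5.31 in transgenic hearts, against 5.43, 5.51 and 5.19 in control hearts. Control 3 lay below transgenic 3, so the groups overlapped. The log2 fold change was -0.19 (SE 0.11, 95% interval -0.44 to 0.05, limma adjusted p = 0.319). The Hcn4 probe lay low, at the 37.6 percentile of the gene means, though not among the dimmest genes (a share of 0.333). Hcn4 minus Hcn2 was -2.30, -2.47 and -2.77 on the log2 scale in transgenic hearts and -2.87, -2.87 and -3.19 in control hearts. The groups did not overlap, the change was 0.46, and the exact permutation p was 0.1 (adjusted 0.2).

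Scn4b did not pass the test, with log2 values of 4.29, 4.40 and 4.53 in transgenic hearts and 4.42, 4.33 and 4.47 in control hearts. The log2 fold change was -0.00091 (SE 0.094, 95% interval -0.21 to 0.21, limma adjusted p = 0.997). Its probe lay at the 21.8 percentile of the gene means and was the only one of the 8 below the level of 5.06 that bounds the dimmest genes (a share of 0.333). No detection calls were used here, and a probe this dim limits what the value says about the transcript.

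**Figure D2:**
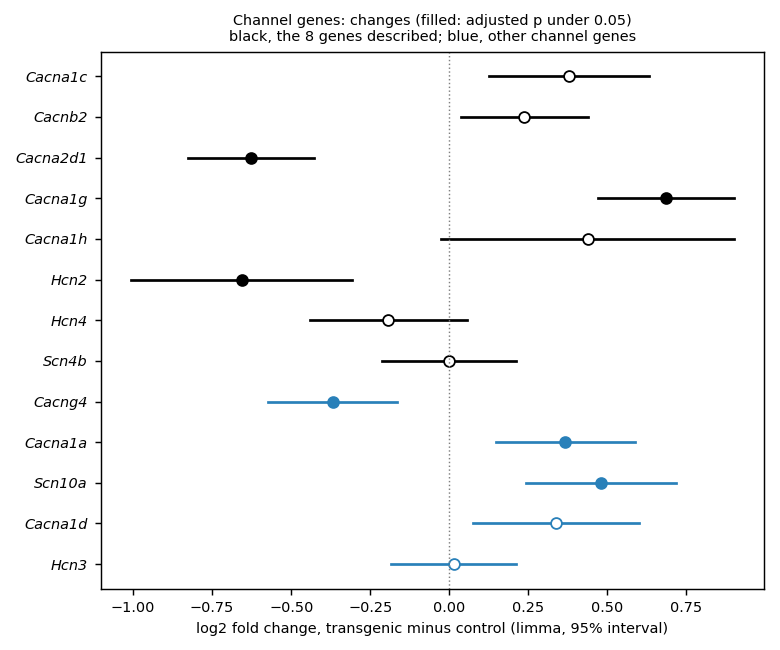
Log2 fold changes of transgenic minus control hearts with 95% intervals from limma, for the 8 channel genes in black and for 5 other channel genes in blue. Filled points passed an adjusted p of 0.05: Cacna1g, Cacna1a and Scn10a lie to the right of 0, and Cacna2d1, Hcn2 and Cacng4 to the left.

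The upstream sequences of Hcn2, Cacna2d1 and Hcn4 are shown because the first 2 genes fell and the third is the near relative of Hcn2 that was not called. They are the 250 bases before the annotated start, from RefSeq (GRCm38.p6), 5′ to 3′ on the plus strand, and capitals mark matches to the motifs searched.
Hcn2 (chr10:79716384-79716633): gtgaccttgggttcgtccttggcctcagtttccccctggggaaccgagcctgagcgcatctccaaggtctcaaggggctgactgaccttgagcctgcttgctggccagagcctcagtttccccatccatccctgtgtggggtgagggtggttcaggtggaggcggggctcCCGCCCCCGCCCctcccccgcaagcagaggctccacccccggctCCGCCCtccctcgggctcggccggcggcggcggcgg
Cacna2d1 (chr5:15934441-15934690): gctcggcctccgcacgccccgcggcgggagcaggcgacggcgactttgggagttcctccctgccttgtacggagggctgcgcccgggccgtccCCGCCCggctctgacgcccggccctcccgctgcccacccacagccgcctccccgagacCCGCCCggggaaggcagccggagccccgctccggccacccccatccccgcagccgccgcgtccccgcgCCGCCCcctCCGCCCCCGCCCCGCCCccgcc
Hcn4 (chr9:58822699-58822948): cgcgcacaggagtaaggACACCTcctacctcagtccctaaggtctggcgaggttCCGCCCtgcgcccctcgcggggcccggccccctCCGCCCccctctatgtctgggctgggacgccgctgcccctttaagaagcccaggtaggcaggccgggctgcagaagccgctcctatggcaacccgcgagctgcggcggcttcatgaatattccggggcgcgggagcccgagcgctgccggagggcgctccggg
Binding motifs of 4 kinds were searched on both strands. The GC box, spelled GGGCGG, matched 3 times before Hcn2, 6 times before Cacna2d1 and 2 times before Hcn4, some matches lying side by side or overlapping by a base. It matched at least once in 32.7% of all 32851 upstream sequences of this length. A T-box element, spelled AGGTGT, matched once before Hcn4, 233 bases before the start, and in 11.8% of all sequences. A GATA element, spelled AGATAA and held by 9.99% of all sequences, had no match in the 3 windows. Neither did an NKX2-5 element, spelled TNAAGTG, which 10.1% of all sequences hold. GC content was 70.4% for Hcn2, 82.4% for Cacna2d1 and 71.2% for Hcn4, against a median of 52.4%. These matches describe letters and are not known sites. Entries were used for 6 of the 8 genes; Cacna1c had 3 annotated starts and Cacnb2 had 2.

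The rest of the calcium, sodium and HCN channel families was read from the same fit. Of 37 other genes listed, 32 were analysed here, and 2 rose and 1 fell, which is 9.38% against 11.1% of all genes. Their median log2 fold change was -0.08. Cacng4, a gamma subunit that binds calcium channels and glutamate receptors, fell by 0.37, with 6.28 ± 0.063 in transgenic and 6.65 ± 0.095 in control hearts (SD, n = 3 each, limma adjusted p = 0.0324). Cacna1a, the pore of the neuronal P/Q-type channel, rose by 0.37 (adjusted p = 0.0437), and that call was lost in each of the 6 fits that left out an array (0.0504 to 0.153), with the replicate number as a block (0.0669), with arrays centred on their medians (0.0635) and when quantile normalization was repeated (0.091). Scn10a, a sodium channel pore known from sensory neurons, rose by 0.48, with 5.10 ± 0.17 in transgenic and 4.62 ± 0.047 in control hearts (SD, n = 3 each, adjusted p = 0.0214). Its probe was dim, at the 29.7 percentile of the gene means and below the level of 5.06. The Cacng4 call was lost in 5 of the 6 fits without an array and with the replicate number as a block (adjusted p = 0.052), and the Scn10a call in 3 of the 6.

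Cacna1d, the second L-type pore of the heart and one that the sinoatrial node uses, averaged 6.24 ± 0.17 in transgenic and 5.90 ± 0.14 in control hearts (SD, n = 3 each, adjusted p = 0.101). Hcn3 averaged 5.30 ± 0.016 in transgenic and 5.28 ± 0.098 in control hearts (SD, n = 3 each, limma adjusted p = 0.947). Of the 32 other channel genes analysed, 13 lay below the level of 5.06 that bounds the dimmest genes, and 8 of these encode sodium channel subunits.

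Genes of proteins that bind, anchor or modify these channels moved both ways. Of 28 measured regulators and partners, 4 rose and 2 fell, 21.4% against 11.1% of all genes, with a median log2 fold change of -0.05. Ank3, or ankyrin-G, which anchors sodium channels at the membrane, rose by 0.73, with 9.25 ± 0.15 in transgenic and 8.51 ± 0.017 in control hearts (SD, n = 3 each, limma adjusted p = 0.00257). The intracellular FGF proteins bind the tails of sodium channels; Fgf11 rose by 0.57 (adjusted p = 0.00686) and Fgf14 fell by 0.74 (adjusted p = 0.00385). Fgf13, the form most used by the adult mouse heart, had a log2 fold change of 0.11 (adjusted p = 0.557). Gpd1l, an enzyme-like protein linked to sodium channel trafficking, fell by 0.52 (adjusted p = 0.011). The 4 calls for Ank3, Fgf11, Fgf14 and Gpd1l held in all 6 fits without an array.

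The other called partners were the calmodulin-dependent kinase subunit Camk2a, with 0.38 (adjusted p = 0.0233), and the scaffold Dlg1, with 0.32 (adjusted p = 0.0448). Camk2a lost the call in 5 of the 6 fits without an array and with the replicate number as a block (adjusted p = 0.0534). Dlg1 lost it in all 6 such fits (0.0572 to 0.144), with the block (0.0786), with arrays centred on their medians (0.0907) and when quantile normalization was repeated (0.0523). Rrad, a small G protein that restrains the L-type channel, averaged 9.59 in transgenic and 9.98 in control hearts (log2 fold change -0.39, adjusted p = 0.0528), and passed the threshold under 4 of the 8 other ways of processing (adjusted p 0.0146 to 0.0817).

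Among 18 measured transcription regulators tied to channel or conduction genes, 3 rose and 1 fell, which is 22.2% against 11.1% of all genes. Hey2, a Notch effector of the compact ventricle, rose by 1.77, with 9.43 ± 0.35 in transgenic and 7.67 ± 0.15 in control hearts (SD, n = 3 each, adjusted p = 0.000542). Tbx18, a factor of the sinoatrial node head and the epicardium, rose by 0.66 (adjusted p = 0.00481), and Irx5, which in mouse shapes the ventricular repolarisation gradient, by 0.44 (adjusted p = 0.0178). The Irx5 call was lost without transgenic 1, transgenic 2 or control 1 (up to 0.0787). Mef2c, a muscle transcription factor, fell by 0.38 (adjusted p = 0.0417), and that call was lost in all 6 fits without an array (0.0633 to 0.136) and with the mean of its probes (0.783). Rest, a repressor of Hcn2, Hcn4 and Cacna1h in the mouse ventricle, had log2 values of 6.78, 6.73 and 6.78 in transgenic hearts and 6.70, 6.74 and 6.60 in control hearts (log2 fold change 0.08, 95% interval -0.11 to 0.27, adjusted p = 0.621).

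Markers of the cells that could contribute these transcripts were read from the same fit, in which 5.35% of all genes were called higher and 5.76% lower. Of 9 atrial markers 5 rose (Myl7, Myl4, Sln, Nppa and Dkk3) and Kcna5 fell, 66.7% against 11.1% of all genes, and their mean level was 8.19 to 8.47 in transgenic and 7.58 to 7.93 in control hearts. Of 6 ventricular markers Hey2 and Irx4 rose and Kcnip2 fell (50% called), with mean levels of 10.30 to 10.49 in transgenic and 10.04 to 10.13 in control hearts. Their log2 fold changes ran from -0.95 for Kcnip2 to 1.77 for Hey2, with a median of 0.13. Hey2 thus weighs most in the higher mean level, and it is also counted among the transcription regulators above. Of 9 sinoatrial node markers Tbx18 and Vsnl1 rose and 0 fell (22.2% called), though 6 of the 9 log2 fold changes were negative. An unadjusted p under 0.05 was held by 4 of the 9 and by 5633 of all 22180 genes. Shox2 and Isl1, which define the node, had log2 fold changes of -0.10 and -0.15 (limma adjusted p = 0.57 and 0.512). Tbx3 had -0.36 (adjusted p = 0.0527) and Bmp4 -0.26 (0.154). For both, every transgenic value lay below every control value, as for 16.7% of all genes. Tbx3 passed the threshold under 5 of the 8 other ways of processing. The mean level of the 9 was 6.63 to 6.77 in transgenic and 6.63 to 6.70 in control hearts. None of the 6 His-Purkinje markers was called by limma, though 3 had an unadjusted p under 0.05, and their mean level was 6.76 to 6.99 in transgenic and 6.83 to 6.91 in control hearts. Of the marker calls in this paragraph, Myl7 and Vsnl1 held in 3 of the 6 fits without an array, Sln in 5 and the others in all 6.

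Markers of other cell types are set against the same 11.1% of all genes called. Of 8 endothelial markers 6 fell (75%), with mean levels of 8.96 to 9.13 in transgenic and 9.41 to 9.50 in control hearts, and of 8 macrophage markers 6 fell (75%), with 6.62 to 6.85 in transgenic and 7.35 to 7.52 in control hearts. Of 8 smooth muscle and pericyte markers, cells that also use Cacna1c and Cacna2d1, Acta2, Pdgfrb and Rgs5 fell and Cnn1 rose (50%), and the mean level was 8.65 to 8.77 in transgenic and 8.71 to 8.86 in control hearts. In this list 6 of the 8 log2 fold changes were negative, with a median of -0.21, while Cnn1 had 1.41. Of 10 measured neuronal markers Stmn2 alone fell (10%), with mean levels of 5.34 to 5.38 in transgenic and 5.32 to 5.40 in control hearts. Of 8 fibroblast markers Postn alone rose (12.5%), with 9.17 to 9.26 in transgenic and 9.02 to 9.19 in control hearts, and of 8 skeletal muscle markers 0 were called and 0 had an unadjusted p under 0.05. The Cdh5, Vwf and Postn calls were lost in all 6 fits without an array. Eng and Pdgfrb held in 1 of these fits, Emcn and Stmn2 in 2, Tie1 and C1qa in 3 and Acta2 in 4. The other calls of this paragraph held in all 6. The part of these cell types in the channel values was not tested.

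**Figure D3:**
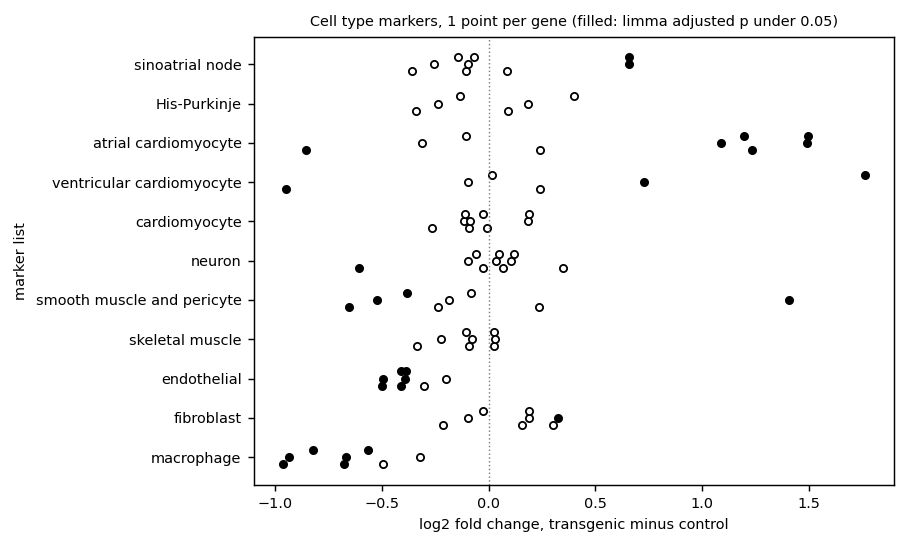
Log2 fold changes of transgenic minus control hearts for the markers of 11 cell types, 1 point per gene, filled where the limma adjusted p was under 0.05. Endothelial and macrophage markers lie left of 0, and 5 of 9 atrial markers lie to the right of 1.

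Across the 6 arrays, the genes whose values ran most like those of Cacna1g, the member with the smallest p, were Rif1 (Pearson r 0.999), Setbp1 (0.999) and Cep44 (0.998). The arrays form 2 groups, so these coefficients mostly reflect the difference between the groups, and 473 genes exceeded 0.95. Rif1 averaged 7.78 in transgenic and 7.50 in control hearts, Setbp1 averaged 8.34 in transgenic and 7.87 in control hearts, and Cep44 averaged 6.28 in transgenic and 5.81 in control hearts.

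The channel values were recomputed under 8 other ways of processing and 6 fits without 1 array. Cacna1g and Cacna2d1 kept their calls in every one of these 14 fits, while Hcn2, Cacna1c and Cacnb2 changed side in some of them.

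**Figure D4:**
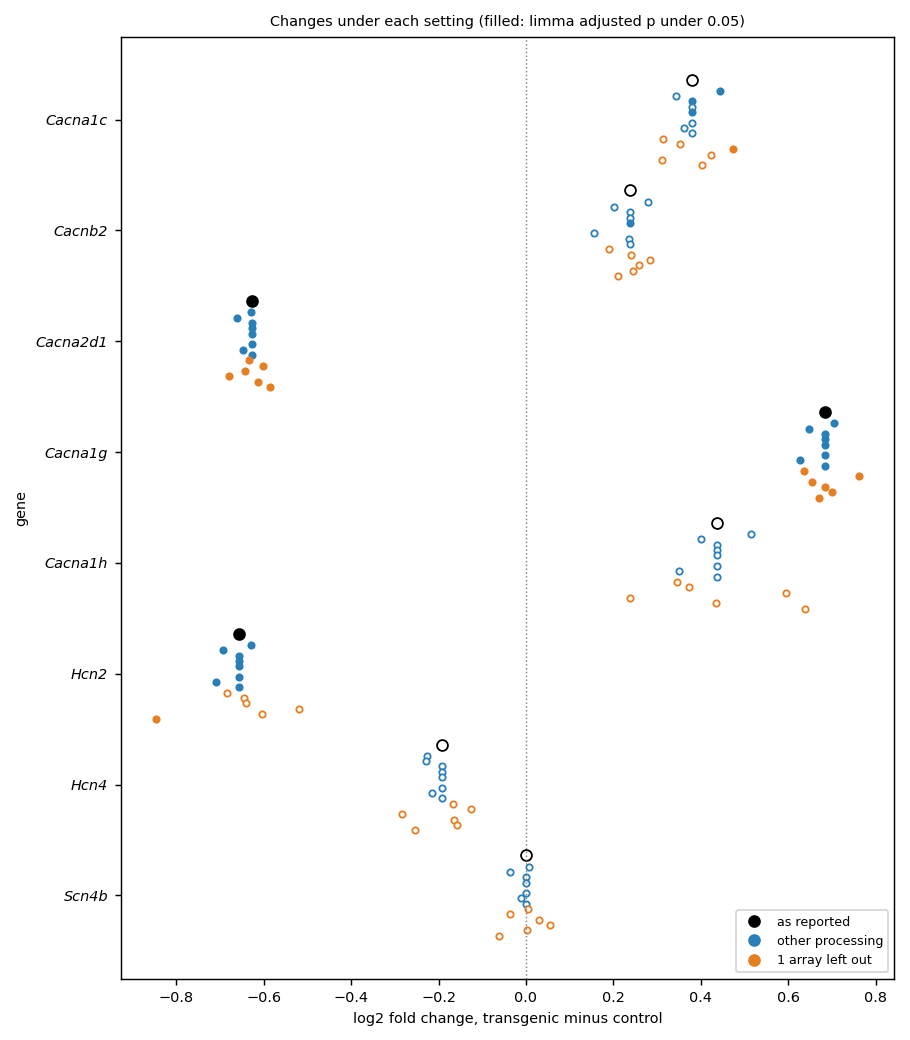
Log2 fold changes of the 8 channel genes, transgenic minus control, as reported (black), under other processing (blue) and with 1 array left out (orange), filled where the limma adjusted p was under 0.05. The Cacna1g and Cacna2d1 points are filled throughout, and the Hcn2 points without 1 array are open except the one near -0.85, without transgenic 3.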

How the data were processed

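Total RNA from 6 mouse heart samples (100 ng each, poly(T)-primed and biotin-labelled per the labels' protocols) was hybridised to 6 Affymetrix arrays. The authors deposited log2 values, 1 for each probe and array; oligo, RMA and limma are named in the submitters' processing notes, with no versions. How background was corrected and which filters were used is not given in the sources used here. Of 41345 probes, 23521 had 1 gene symbol in the platform annotation, 1814 several and 16010 none; probes with 1 symbol were used, the brightest per gene, which left 22180 genes. All 8 members matched RefSeq by gene identifier. No 2 arrays were identical.

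The comparison of transgenic with control hearts used limma 3.58.1 (R 4.3.3; lmFit, then eBayes) without covariates or a filter on dim probes, with fold changes as transgenic minus control, with Benjamini-Hochberg adjustment over all genes at 0.05. Related members were also compared within arrays by exact permutation (scipy 1.17.1). In simulated data for this comparison over 22180 genes, 0% of 50 genes changed 1.25-fold were recovered. The shares were 48% of 50 genes changed 1.5-fold and 80% of 50 changed 2-fold. The simulation changed a smaller share of genes than the 11.1% called in the real data. That share affects the adjusted p, so recovery in the real data may differ. The members and lists were chosen with earlier results of these data known. Genes were named by rule: all members, up to 6 called genes of each list, Cacna1d and Hcn3 in any case (other genes that the rule names are not reported here), and the 3 genes most correlated with the member of smallest p, passing over symbols without a known function. Fgf13, Rrad and Rest were named after their values were seen. Alternatives are given in the closing section.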

Additional observations from a re-analysis of the deposited data

How the results depend on the processing

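Of the 8 channel genes, the number called higher was 1 as reported, 2 with the dimmest genes left out (a share of 0.333) or with array weights, 3 with an intensity trend and robust variance, and 1 to 2 without 1 array. The number called lower was 2, and 1 to 2 without 1 array. The other channel genes called numbered 3 as reported, 1 with the replicate block, 4 with array weights and 0 to 2 without 1 array. Regulators, partners and transcription regulators called numbered 10, against 16 with the dimmest genes left out, 17 with an intensity trend, 8 with the replicate block and 6 to 9 without 1 array. Over all genes 2465 were called, from 1996 with the replicate block to 3168 with an intensity trend under other processing, and 1171 to 2249 without 1 array, where fewer samples entered the fit. Causes of these shifts were not tested. Of the 320 values of the 8 members and 15 other named genes under 14 alternatives, 267 stayed on their side of the threshold, 48 lost the call and 5 gained it, and 0 called values changed sign. The 4 within-array differences, recomputed by alternatives chosen after seeing the data, kept their direction in all of them.

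Whether the replicate numbers pair the samples could not be decided, because 6 arrays are too few for such a check. Same-numbered arrays correlated at 0.0486, -0.0592 and 0.0486 in their deviations from the group means. By contrast, 4 of the 6 arrays were closest to their own number. With the replicate block Cacna1g stood at an adjusted p of 0.00976, Cacna2d1 at 0.0105 and Hcn2 at 0.0241. In the fit without covariates the 6 arrays leave 4 residual degrees of freedom, and the replicate block leaves fewer. The Scn4b probe was among the dimmest genes and the Hcn4 probe lay not far above them, which limits what their values say.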
